A study of Mus musculus with 13 samples.

Results

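Outside the actins, the contractile apparatus of smooth muscle was followed here through 8 genes, Tagln, Myh11, Cnn1, Myl9, Mylk, Smtn, Lmod1 and Tpm2, among the 27998 genes listed in each of 10 count matrices from developing mouse embryos and hearts. The members were taken by symbol from the known contractile genes of smooth muscle, with earlier results of these data known, and each has 1 row in every matrix. Cells were wild-type C57Bl/6J throughout, with no transgene and no treatment. They came from whole embryos without head and limbs at embryonic day (E) 8.5 and E10.5, from hearts at E12.5, E14.5 and E16.5, and from hearts at postnatal day (P) 3. Single cells were captured in droplets and counted as unique molecular identifiers (UMIs), each standing for 1 captured RNA molecule. There were 2 libraries at each of E10.5, E12.5, E14.5 and E16.5, and the design text describes them as biological replicates. At E8.5 only replicate 2 was analysed here, and P3 is 1 pooled matrix, so neither stage entered a test.

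Smooth muscle contracts when calcium signals activate myosin light chain kinase, which phosphorylates the regulatory light chain of myosin and so lets smooth muscle myosin pull on actin filaments. In the embryo the same genes are not limited to smooth muscle, since early cardiomyocytes pass through a period in which they also carry smooth muscle actin and transgelin. In the heart the vessel wall is built by mural cells, a name for pericytes on capillaries and smooth muscle cells on larger vessels. Myh11 (ENSMUSG00000018830), the heavy chain of smooth muscle myosin, lies on chromosome 16 (14194535 to 14291372, minus strand, mouse build GRCm38, GENCODE M21), and Myl9 (ENSMUSG00000067818), a regulatory light chain, lies on chromosome 2 (156775420 to 156781658, plus strand). Mylk (ENSMUSG00000022836), which encodes the light chain kinase, lies on chromosome 16 (34745210 to 35002420, plus strand). Cnn1 (ENSMUSG00000001349, chromosome 9, 22099216 to 22109630, plus strand) encodes calponin 1, an actin-binding inhibitor of myosin ATPase. Tagln (ENSMUSG00000032085, chromosome 9, 45929619 to 45936058, minus strand) encodes the calponin-related actin cross-linker transgelin, also called SM22. Smtn (ENSMUSG00000020439, chromosome 11, 3517523 to 3540612, minus strand) encodes smoothelin, an actin-associated protein of contractile smooth muscle. Lmod1 (ENSMUSG00000048096, chromosome 1, 135324807 to 135368065, plus strand) encodes leiomodin 1, an actin filament nucleator. Tpm2 (ENSMUSG00000028464, chromosome 4, 43514711 to 43523765, minus strand) encodes beta-tropomyosin, which lies along actin filaments and is made in skeletal as well as smooth muscle.

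Genes of this kind are known to be switched on by serum response factor (SRF) and its partner myocardin through the CArG box, the sequence CC followed by 6 bases that are A or T and then GG. The upstream stretches of Myl9, Cnn1 and Lmod1, all of which rose or fell in cardiomyocytes below, are printed to show what such a window holds. They come from RefSeq promoter windows of build GRCm38.p6, 250 bases before to 50 after a RefSeq start, and the 3 printed ones are ended where the GENCODE gene begins. Such windows were found for 6 of the 8 members, and not for Tagln or Myh11. Those of Mylk (chr16:34784700-34784999) and Smtn (chr11:3539243-3539542) lie inside the gene bounds given above, as does most of that of Tpm2 (chr4:43523505-43523804). Capitals mark a CArG box, or the same box with 1 G or C in its core, searched on both strands.
Myl9 chr2:156775214-156775419 (plus strand): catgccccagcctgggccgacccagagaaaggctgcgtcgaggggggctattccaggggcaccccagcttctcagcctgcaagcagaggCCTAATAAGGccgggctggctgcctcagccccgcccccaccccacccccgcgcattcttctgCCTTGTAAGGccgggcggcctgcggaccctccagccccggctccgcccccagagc
Cnn1 chr9:22099003-22099215 (plus strand): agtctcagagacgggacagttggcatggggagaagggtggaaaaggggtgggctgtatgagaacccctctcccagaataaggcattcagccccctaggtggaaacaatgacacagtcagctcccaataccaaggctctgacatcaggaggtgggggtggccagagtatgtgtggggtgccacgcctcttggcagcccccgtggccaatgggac
Lmod1 chr1:135324563-135324806 (plus strand): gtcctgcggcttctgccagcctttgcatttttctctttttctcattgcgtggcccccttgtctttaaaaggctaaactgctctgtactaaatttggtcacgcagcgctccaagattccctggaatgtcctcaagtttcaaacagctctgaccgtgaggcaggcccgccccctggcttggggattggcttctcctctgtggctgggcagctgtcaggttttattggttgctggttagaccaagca
Myl9 had the full box, CCTAATAAGG, 161 bases before the RefSeq start, and the variant CCTTGTAAGG 99 bases before it. Of the 32851 windows of this length, 1.63% held the full box and 8.5% the variant with 1 G or C. The windows of Cnn1, Lmod1, Mylk, Smtn and Tpm2 held neither, which says only that these letters are not in these windows.

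Barcodes with at least 2000 UMIs, of which at least 1% were mitochondrial, were kept (67411 in all, 3984 to 12132 per matrix). The mitochondrial floor removed 15.02 to 25.04% of barcodes from the embryonic matrices and 2.48% at P3. Cardiomyocytes were the 23830 barcodes with at least 1500 CPM, UMI counts scaled to a common total per cell, of Tnnt2, cardiac troponin T. There were 119 at E8.5, 108 and 99 in the E10.5 libraries, 1733 and 2311 in E12.5 hearts, 2836 and 2390 in E14.5 hearts, 3607 and 3482 in E16.5 hearts, and 7145 in P3 hearts. Rgs5 is a pericyte gene that the study lists as a marker of smooth muscle cells. Mural cells were the 1643 other barcodes with at least 3 UMIs of Rgs5 or of Myh11. They numbered 56 at E8.5, then 73 and 77 at E10.5, 138 and 172 in E12.5 hearts, 50 and 26 in E14.5 hearts, 144 and 101 in E16.5 hearts, and 806 in P3 hearts. Between 1 and 69 barcodes per matrix met both rules and were counted as cardiomyocytes. In the 1000 to 1500 CPM band just under the Tnnt2 limit lay 16 to 172 barcodes per matrix, against 27 to 237 in the 1500 to 2000 CPM band just above it. In the E10.5 libraries 42 and 54 lay just under it and 51 and 36 just above, beside 108 and 99 cardiomyocytes in all. At E16.5 the band above held 94 and 76, beside 3607 and 3482 cardiomyocytes. Much of the E10.5 class thus lay close to the limit. Between 7 and 48 barcodes had exactly 3 UMIs of Rgs5 or Myh11, and 18 to 73 had 2. Those with exactly 3 numbered 27 at E8.5 and 26 and 34 at E10.5, beside 56, 73 and 77 mural cells.

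In the cardiomyocyte sums 10 cardiomyocyte genes added up to between 16187 and 40182 CPM, and none was at 0 in any matrix. Tnnt2, which chose these cells, is among the 10, so the rule sets part of this. In both E10.5 libraries the cardiomyocytes also carried skeletal muscle markers at 79.5 and 35.3 CPM, against at most 0.5 CPM in the hearts, so the E10.5 sums hold some skeletal muscle RNA. The mural label was weak before E14.5. A list of 8 pericyte genes other than Rgs5 summed to 52.8 CPM at E8.5, then 72.8 and 64.1 CPM at E10.5 and 135 and 152 CPM in E12.5 hearts, with 2 to 4 of the 8 at 0. It then reached 816 and 1089 CPM in E14.5 hearts, 2875 and 3198 CPM at E16.5 and 2403 CPM in P3 hearts. Up to E12.5 these cells are therefore best read as Rgs5-selected cells rather than as pericytes. The 8 genes do not tell whether the cells were smooth muscle, which was not tested. Mean Acta2, smooth muscle actin, was at 482 CPM in the mural sums at E10.5, 1454 CPM at E12.5, 934 CPM at E14.5 and 1020 CPM at E16.5. Fibroblast markers in the mural sums moved too, from 152 and 233 CPM at E10.5 to 1287 and 1407 CPM in E12.5 hearts, 3836 and 2689 CPM in E14.5 hearts, 2106 and 2296 CPM at E16.5 and 3662 CPM in P3 hearts. Their part in the mural values below was not tested.

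Levels are the UMIs of a gene summed over a class of cells in 1 library, scaled to CPM of all UMIs of that sum. They count tags near the 3′ end, so they are compared between samples for 1 gene and not between genes. Tests compared these sums between libraries with edgeR's quasi-likelihood test, fitted over all genes and called at a Benjamini-Hochberg adjusted p under 0.05. With 2 libraries a stage the p-values measure the spread between these libraries only. A lower level of a class cannot tell fewer expressing cells from less RNA per cell, and for that reason shares of cells are given beside some levels.

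Tagln was high in the earliest cardiomyocytes and low in the latest. It stood at 594 CPM at E8.5, then 658 and 733 CPM at E10.5, 423 and 369 CPM in E12.5 hearts, 158 and 156 CPM in E14.5 hearts, 25.7 and 21.7 CPM at E16.5, and 45.4 CPM in P3 hearts. From E10.5 to E16.5 no library of a stage overlapped with a library of the next. The fitted log2 differences were -0.71 (SE 0.10) from E10.5 to E12.5, -1.33 (SE 0.10) from E12.5 to E14.5 and -2.52 (SE 0.10) from E14.5 to E16.5. No p is given for these 3 steps, since the fall of Tagln in cardiomyocytes was part of why the genes were chosen. For the same reason the SEs and the lack of overlap are description only.

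The share of cardiomyocytes with a Tagln UMI moved in parallel. With each cell thinned to 2000 UMIs, 58.0% had one at E8.5, then 52.8 and 50.5% at E10.5, 40.1 and 37.3% in E12.5 hearts, and 18.5 and 17.2% in E14.5 hearts. At E16.5 the share was 3.49 and 2.99%, and at P3 it was 3.95% (exact binomial 95% interval 3.51 to 4.42%). Without thinning it went from 98.3% at E8.5 to 13.6 and 10.6% at E16.5. Macrophages, which should lack Tagln, showed 0 to 5.26% after thinning, with 1 to 163 cells and median depths of 8065 to 39710 UMIs against 13194 to 25403 UMIs in cardiomyocytes. Within a stage the macrophage share was 0 and 2.27% at E16.5, from 0 of 53 and 1 of 44 cells, and 1.23% at P3 (2 of 163 cells, exact binomial 95% interval 0.15 to 4.36%). At these depths the E16.5 shares could not be set apart from that background. Macrophages of the E16.5 libraries had Tagln at 1.59 and 2.69 CPM, from 1 UMI each, and endothelial cells at 2.00 and 3.72 CPM, both below the cardiomyocyte levels there. In E12.5 and E14.5 hearts macrophages lay between 0 and 12.9 CPM. Erythroid cells, a second background, had Tagln between 11.7 and 206 CPM in E12.5 hearts, from 62 UMIs. They had it between 58.8 and 332 CPM in E14.5 hearts, from 117 UMIs, and between 0 and 9.13 CPM at E16.5, from 4 UMIs. Barcodes with 1 to 100 UMIs, which mostly hold free RNA, had Tagln at 334 and 313 CPM in E12.5 hearts, 117 and 109 CPM in E14.5 hearts and 25.7 and 26.7 CPM in E16.5 hearts. At P3 the level was 24.8 CPM in cardiomyocytes without markers of other classes, against 45.4 CPM in all of them.

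**Figure D1:**
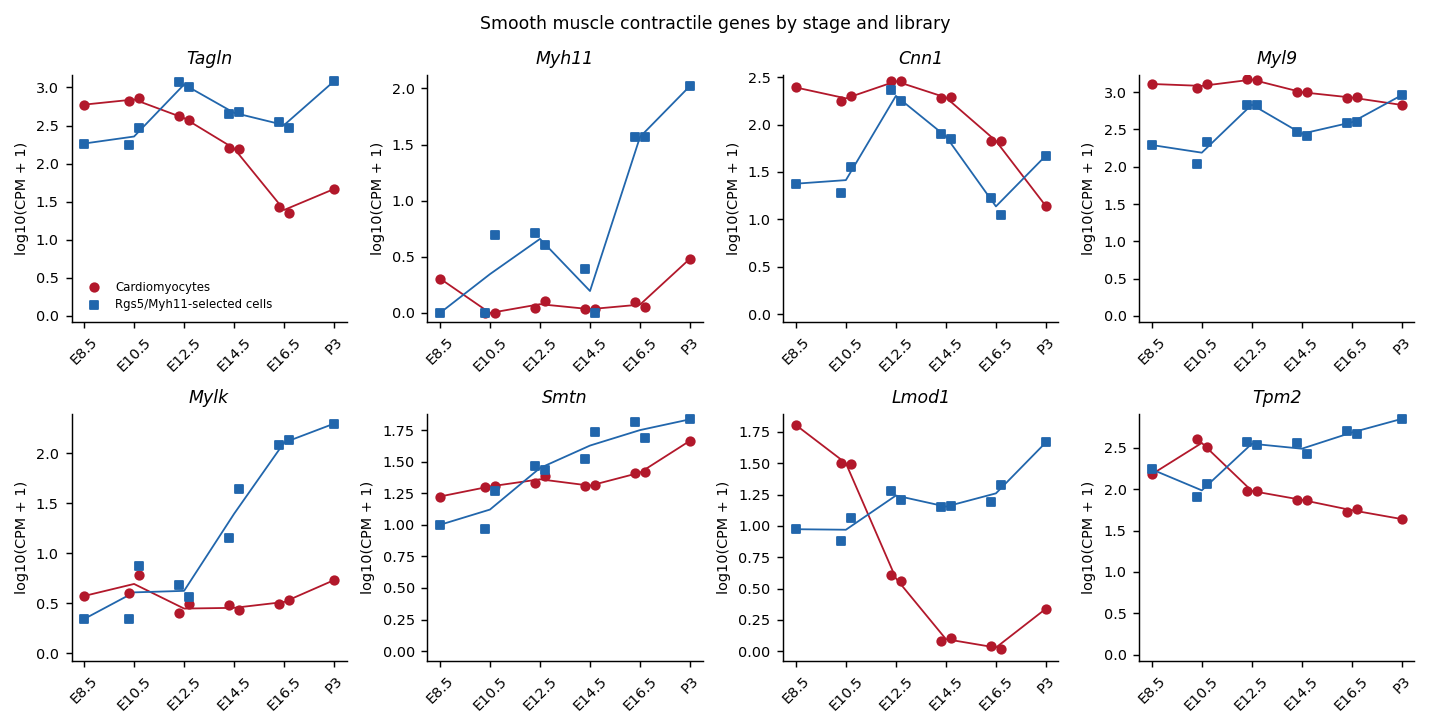
Levels of the 8 genes, as log10(CPM + 1), by stage in cardiomyocytes and in mural cells (chosen by Rgs5 or Myh11 UMIs), with 1 point per library and lines through the stage means. In cardiomyocytes Tagln falls from 658 and 733 CPM at E10.5 to 25.7 and 21.7 CPM at E16.5, while in mural cells Mylk rises from 3.801 and 2.69 CPM in E12.5 hearts to 119 and 136 CPM at E16.5.

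Calponin 1 fell later. Cnn1 was at 245 CPM in E8.5 cardiomyocytes, 177 and 199 CPM at E10.5, 285 and 284 CPM in E12.5 hearts, 189 and 194 CPM in E14.5 hearts, 65.9 and 66.3 CPM at E16.5, and 12.8 CPM in P3 hearts. Its highest libraries were those of E12.5, and from there on each stage lay below the one before it. It was higher at E12.5 than at E10.5 by 0.70 (SE 0.09, edgeR adjusted p = 8.71e-06), and fell by 0.57 to E14.5 (edgeR adjusted p = 1.01e-05) and by 1.33 to E16.5 (edgeR adjusted p = 2.54e-10), all on the log2 scale. The call of the first step was lost with a Tnnt2 limit of 3000 CPM (0.28, edgeR adjusted p = 0.219). The share of cardiomyocytes with a Cnn1 UMI after thinning was 38.5 and 39.6% at E12.5, 10.51 and 9.71% at E16.5 and 2.31% in P3 hearts, against 0 to 2.56% in macrophages.

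Leiomodin 1 had the largest fall of the members tested in cardiomyocytes. Lmod1 was at 62.7 CPM at E8.5 and 31.0 and 30.2 CPM at E10.5. It was down to 3.04 and 2.61 CPM in E12.5 hearts, 0.21 and 0.28 CPM in E14.5 hearts, and 0.10 and 0.04 CPM at E16.5. The last 4 of these libraries held 11, 10, 7 and 2 UMIs in all. The difference was -3.35 (SE 0.23, edgeR adjusted p = 6.26e-09) from E10.5 to E12.5 and -3.51 (SE 0.27, edgeR adjusted p = 2.96e-08) from E12.5 to E14.5. The last step, -1.45 (SE 0.52, edgeR adjusted p = 0.0338), rested on those few UMIs and was no longer called with cells of at least 5000 UMIs or without E14.5 replicate 1, E14.5 replicate 2 or E16.5 replicate 2, the lone library of a stage being taken to vary as the others did. P3 cardiomyocytes showed 1.19 CPM, or 0.21 CPM in those without markers of other classes.

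From E12.5 to E16.5 the light chain and the tropomyosin fell less. Myl9 was at 1284 CPM at E8.5, then 1136 and 1289 CPM at E10.5, 1508 and 1434 CPM in E12.5 hearts, 993 and 998 CPM in E14.5 hearts, 839 and 848 CPM at E16.5, and 671 CPM in P3 hearts. It differed by 0.37 (SE 0.08, edgeR adjusted p = 0.00255) between E10.5 and E12.5, by -0.56 (SE 0.08, edgeR adjusted p = 5.19e-05) between E12.5 and E14.5, and by -0.04 (SE 0.08, edgeR adjusted p = 0.739, 95% interval -0.20 to 0.12) between E14.5 and E16.5. In CPM the last step was a ratio of 0.85 without overlap of the libraries, and the edgeR scaling takes up most of it. The first of these turned to -0.19 (edgeR adjusted p = 0.247) with a Tnnt2 limit of 3000 CPM, and its call was lost without E10.5 replicate 1. Even at P3, 53.5% of cardiomyocytes had a Myl9 UMI after thinning, against 3.68% of macrophages.

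Tpm2 was at 151 CPM at E8.5, then 410 and 320 CPM at E10.5, 93.3 and 95.3 CPM in E12.5 hearts, 73.2 and 73.5 CPM in E14.5 hearts, 52.5 and 57.1 CPM at E16.5 and 42.6 CPM in P3 hearts. The high E10.5 values moved with the skeletal muscle markers, because without cells carrying those markers Tpm2 was at 143 and 148 CPM there. The difference from E10.5 to E12.5 was -1.86 (SE 0.09, edgeR adjusted p = 1.56e-10) with all cardiomyocytes and -0.52 (edgeR adjusted p = 2.17e-04) without those cells. From E12.5 to E14.5 it was -0.36 (SE 0.08, edgeR adjusted p = 0.0031). The step from E14.5 to E16.5, -0.22 (SE 0.08, edgeR adjusted p = 0.0435), was no longer called when any 1 of the E14.5 or E16.5 libraries was left out, by DESeq2 (adjusted p = 0.0537) or without mitochondrial and globin genes (edgeR adjusted p = 0.0563).

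Smoothelin went the other way. Smtn was at 15.8 CPM at E8.5, then 18.8 and 19.4 CPM at E10.5, 20.6 and 23.4 CPM in E12.5 hearts, 19.1 and 19.7 CPM in E14.5 hearts, 24.6 and 25.2 CPM at E16.5, and 45.3 CPM in P3 hearts. It rose from E14.5 to E16.5 by 0.56 (SE 0.07, edgeR adjusted p = 4.85e-06), and the groups did not overlap. This is a fitted fold of 1.47, against a ratio of 1.28 in CPM, so the edgeR scaling enlarged the rise. At P3 the barcodes carry a suffix of 1 or 2, and Smtn was at 32.8 CPM in cardiomyocytes with the first and 77.2 CPM in those with the second, so the P3 level depends on which suffix is read. From a visual check, the study reports significant batch differences at P3 and at no other stage. Whether the suffixes stand for those batches is not stated.

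Mylk and Myh11 were low in cardiomyocytes. Mylk lay between 1.53 and 5.04 CPM in all 10 matrices, from 5 to 493 UMIs, and Myh11 between 0 and 2.05 CPM. Macrophages had Mylk at 0 to 4.90 CPM, from 0 to 3 UMIs a matrix. At P3 Mylk was at 1.05 CPM in macrophages and 4.40 CPM in cardiomyocytes, or 2.63 CPM in cardiomyocytes without markers of other classes. Both E10.5 libraries held 0 Myh11 UMIs, which allows up to 1.82 and 2.16 CPM. Limits of this kind are set at 3 counts and cover counting error only. Mylk was higher at E16.5 than at E12.5 by 0.51 (SE 0.18, edgeR adjusted p = 0.0213), but the difference was 0.24 (edgeR adjusted p = 0.284) in cardiomyocytes without markers of other classes, and the call was lost without E12.5 replicate 1 or E16.5 replicate 2. Myh11 showed no called difference at any step, and its change from E10.5 could not be estimated against counts of 0.

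Over the whole interval from E12.5 to E16.5, 6 of the 7 members tested in cardiomyocytes passed, 2 higher and 4 lower, where 58.2% of all genes tested passed (29.6% higher and 28.6% lower). The 4 that fell were Cnn1 by 1.90 (SE 0.07), Myl9 by 0.60 (SE 0.08), Lmod1 by 4.96 (SE 0.31) and Tpm2 by 0.58 (SE 0.08) on the log2 scale, with edgeR adjusted p-values from 6.05e-13 to 1.16e-05. For Tagln, which was not tested here, the difference was -3.85 (SE 0.11). Smtn rose by 0.39 (SE 0.07, edgeR adjusted p = 9.33e-05) beside Mylk, and Myh11 differed by 0.14 (SE 0.52, edgeR adjusted p = 0.832). The edgeR scaling enlarged both rises, since the fitted folds of 1.31 for Smtn and 1.42 for Mylk stood against CPM ratios of 1.13 and 1.25. From E10.5 to E12.5, 4 of the 7 tested passed, 2 each way, against 29.6% of genes (16.2% higher, 13.4% lower). In that step whole embryos give way to dissected hearts, so stage and tissue cannot be told apart. From E12.5 to E14.5, 4 of 7 passed, all lower, against 34% of genes (18.2% higher and 15.9% lower). From E14.5 to E16.5, 4 of 7 passed, 1 higher and 3 lower, against 39.1% of genes (19.9% higher and 19.2% lower).

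The muscle actin Acta2 showed no called difference in cardiomyocytes from E12.5 to E16.5, and it was lower at P3. It was at 4505 CPM at E8.5, then 2367 and 2576 CPM at E10.5, 1174 and 1182 CPM in E12.5 hearts, 1337 and 1426 CPM in E14.5 hearts, 1009 and 1034 CPM at E16.5, and 517 CPM in P3 hearts. Its mean level at E16.5 was 0.87 times that at E12.5 in CPM, and the fitted difference was 0.00 (SE 0.08, edgeR adjusted p = 0.995), because the edgeR scaling places fitted differences in this comparison above the CPM ratios. Myocd, myocardin, was at 35.4 and 37.5 CPM at E12.5 and 47.4 and 42.4 CPM at E16.5, a rise of 0.51 (SE 0.09, edgeR adjusted p = 6.35e-05). Srf was at 61.1 and 68.3 CPM at E12.5 and 54.6 and 56.4 CPM at E16.5, a difference of -0.01 (SE 0.07, edgeR adjusted p = 0.877) in the fit.

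Genes most like Tagln over the 10 cardiomyocyte sums were Col2a1, a collagen (r = 0.981), P4hb, protein disulfide isomerase (r = 0.979), Rbpms2, an RNA-binding protein (r = 0.978), Mpped2 (r = 0.975) and Slc3a2, an amino acid transporter subunit (r = 0.975). These are Pearson correlations of log2(CPM + 1) among 4656 genes with a mean of at least 20 CPM, given as a description, since the 10 sums share stage and tissue. Among the members r with Tagln was 0.843 for Myl9, 0.819 for Tpm2, 0.796 for Lmod1 and 0.749 for Cnn1. It was 0.120 for Mylk, -0.242 for Myh11 and -0.641 for Smtn.

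**Figure D2:**
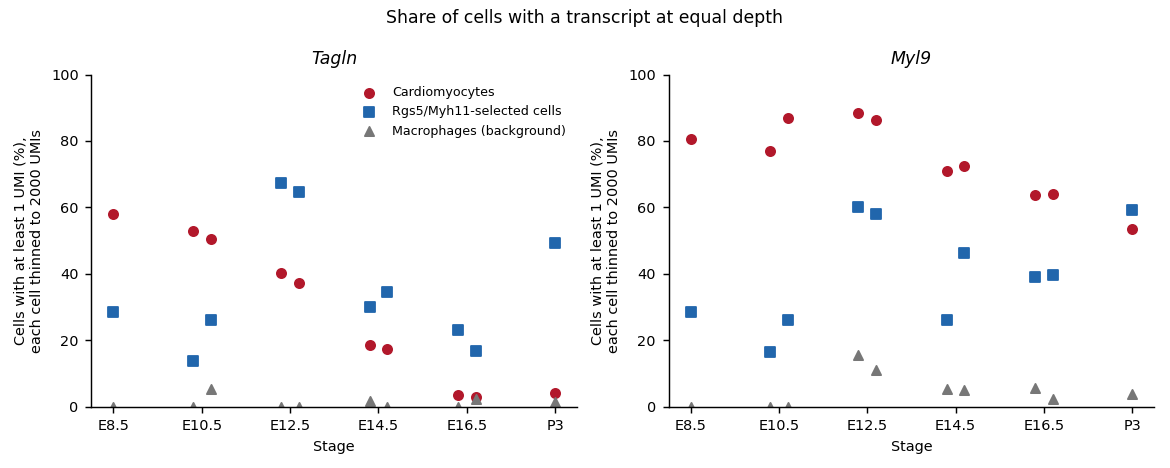
Percent of cells with at least 1 UMI of Tagln or Myl9 by stage after thinning every cell to 2000 UMIs, 1 point per library, for cardiomyocytes, mural cells and macrophages. Tagln is seen in 58.0% of cardiomyocytes at E8.5 and 3.49 and 2.99% at E16.5, while macrophages lie between 0 and 5.26%.

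Compared with cardiomyocytes, mural cells showed a different order of events. In these cells Tagln was at 182 CPM at E8.5, then 175 and 291 CPM at E10.5, 1181 and 1011 CPM in E12.5 hearts, 453 and 474 CPM in E14.5 hearts, 353 and 290 CPM at E16.5, and 1211 CPM in P3 hearts. The E12.5 libraries stood above all other embryonic ones. Tagln fell from E12.5 to E14.5 by 1.27 (SE 0.15, edgeR adjusted p = 2.21e-04) on the log2 scale, and differed by -0.39 (SE 0.16, edgeR adjusted p = 0.175) from E14.5 to E16.5. At E8.5 the mural levels depended on the barcodes that met both rules, since with those 10 barcodes counted as mural Tagln was at 328 CPM, Cnn1 at 64.4 CPM, Myl9 at 391 CPM and Lmod1 at 22.5 CPM there. Cells with a Tagln UMI after thinning made up 67.4 and 64.5% at E12.5, 22.9 and 16.8% at E16.5, and 49.3% in P3 hearts, at median depths of 9906.5 to 25405.5 UMIs per cell over all matrices.

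Cnn1 was at 22.8 CPM at E8.5, then 17.9 and 34.7 CPM at E10.5, 227 and 175 CPM in E12.5 hearts, 79.0 and 69.2 CPM in E14.5 hearts, 15.97 and 10.1 CPM at E16.5, and 46.2 CPM in P3 hearts. It fell by 1.45 (SE 0.21, edgeR adjusted p = 8.33e-04) to E14.5 and by 2.29 (SE 0.29, edgeR adjusted p = 3.65e-04) to E16.5. Of the 45 mural Cnn1 UMIs at E16.5, 21 came from cells with at least 3 Myh11 UMIs. Without those cells the E16.5 libraries lay between 3.84 and 9.78 CPM, values that carry no test. Myl9 was at 194 CPM at E8.5, then 109 and 215 CPM at E10.5, 679 and 678 CPM in E12.5 hearts, 291 and 261 CPM in E14.5 hearts, 389 and 397 CPM at E16.5, and 911 CPM in P3 hearts. It fell by 1.32 (SE 0.13, edgeR adjusted p = 4.64e-05) and then rose by 0.63 (SE 0.14, edgeR adjusted p = 0.0129), the rise losing its call without either E16.5 library. Transgelin, calponin 1 and the light chain therefore shared their highest embryonic level at E12.5, where the pericyte markers were still low. This was not particular to mural cells. In cells with at least 10 UMIs of Col1a1 and Col3a1, mean Tagln was 156 CPM at E10.5, 628 CPM at E12.5, 329 CPM at E14.5 and 147 CPM at E16.5. Mean Cnn1 there was 9.27, 94.8, 42.1 and 9.37 CPM, and mean Myl9 was 127, 288, 124 and 112 CPM. At P3 Tagln was at 376 CPM in such cells.

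The kinase rose through the same period, in which the pericyte markers of these sums rose too. Mylk was at 1.20 CPM at E8.5, then 1.19 and 6.54 CPM at E10.5, 3.801 and 2.69 CPM in E12.5 hearts, 13.2 and 42.6 CPM in E14.5 hearts, 119 and 136 CPM at E16.5, and 197 CPM in P3 hearts. The 2 E14.5 libraries, of 50 and 26 cells, differed by more than 3-fold, and those of E16.5 lay above both. The difference was 2.83 (SE 0.54, edgeR adjusted p = 0.00594) from E12.5 to E14.5 and 2.53 (SE 0.32, edgeR adjusted p = 3.48e-04) from E14.5 to E16.5. The first call was lost without E12.5 replicate 2 and without E14.5 replicate 2 (1.93). The second was 1.67 without E14.5 replicate 1 and 3.44 without E14.5 replicate 2, and stayed called. After thinning, 23.6 and 21.8% of mural cells had a Mylk UMI at E16.5 and 31.4% at P3, against 1.20 and 1.14% and then 1.38% of endothelial cells.

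Myh11, which helped to choose these cells, appeared late. It was at 0 UMIs at E8.5, allowing up to 1.80 CPM, where the 1 barcode with at least 3 Myh11 UMIs had been counted as a cardiomyocyte, and at 0 to 4.18 CPM from E10.5 to E14.5, where the libraries at 0 UMIs allow up to 1.79 CPM (E10.5 replicate 1) and 7.99 CPM (E14.5 replicate 2). It reached 36.2 and 35.8 CPM at E16.5 and 104 CPM at P3. Of the selected cells, 0 to 1 per library carried at least 3 Myh11 UMIs up to E14.5, 6 and 5 did at E16.5, and 106 of 806 at P3.

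Tpm2 was at 371 and 339 CPM in E12.5 hearts, 357 and 266 CPM in E14.5 hearts, 501 and 469 CPM at E16.5 and 709 CPM in P3 hearts, after 173 CPM at E8.5 and 79.9 and 115 CPM at E10.5. It rose from E14.5 to E16.5 by 0.75 (SE 0.15, edgeR adjusted p = 0.0087), a call lost without E16.5 replicate 1. Smtn was at 28.1 and 26.3 CPM in E12.5 hearts, 32.2 and 53.2 CPM in E14.5 hearts, 63.9 and 47.8 CPM at E16.5 and 67.5 CPM in P3 hearts. A higher Smtn level at E16.5 was not particular to mural cells. Its mean in endothelial cells was 34.1 CPM at E12.5 and 62.4 CPM at E16.5. In cells with at least 10 UMIs of Col1a1 and Col3a1 it was 23.8 and 40.1 CPM, and in macrophages 2.16 and 1.59 CPM. Lmod1 was at 8.40 CPM at E8.5, then 6.56 and 10.46 CPM at E10.5, 17.9 and 15.1 CPM in E12.5 hearts, 13.2 and 13.3 CPM in E14.5 hearts, 14.6 and 20.2 CPM at E16.5, and 45.4 CPM in P3 hearts. A few cells held much of it late, since 8 of 31 and 17 of 22 Lmod1 UMIs of the E16.5 libraries came from the 6 and 5 cells with at least 3 Myh11 UMIs. Without the cells of at least 3 Myh11 UMIs, Lmod1 was at 17.2 and 15.2 CPM in E12.5 hearts and 11.25 and 4.81 CPM at E16.5, values that carry no test, since a member gene made the split.

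From E12.5 to E16.5, 6 of the 7 tested members passed in mural cells, 3 higher and 3 lower, against 29.5% of all genes tested (15.5% higher and 14% lower). At E12.5 this class was Rgs5-selected cells with low pericyte markers, so stage and kind of cell cannot be told apart in differences from E12.5. Mylk rose by 5.36 (SE 0.30, edgeR adjusted p = 3.24e-08), Smtn by 1.18 (SE 0.21, edgeR adjusted p = 7.95e-04) and Tpm2 by 0.55 (SE 0.14, edgeR adjusted p = 0.00908). The Tpm2 call was lost without E12.5 replicate 1, E12.5 replicate 2 or E16.5 replicate 1, and also when barcodes over the Tnnt2 limit were let in (0.40, edgeR adjusted p = 0.0659). Tagln fell by 1.66 (SE 0.15), Cnn1 by 3.75 (SE 0.22) and Myl9 by 0.69 (SE 0.12), with edgeR adjusted p-values of 2.34e-06, 5.12e-08 and 8.80e-04. Lmod1 differed by 0.12 (SE 0.26, edgeR adjusted p = 0.775, 95% interval -0.40 to 0.64). With Rgs5 as the only rule, an alternative added after the data were seen, no call of a member changed in the 3 comparisons of mural cells, and Lmod1 differed by 0.019 (edgeR adjusted p = 0.999). From E12.5 to E14.5, 4 of 7 passed, 1 higher and 3 lower, against 8.05% of genes (4.68% higher, 3.36% lower). From E14.5 to E16.5, 4 of 7 passed, 3 higher and 1 lower, against 7.14% (3.74% higher, 3.4% lower).

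At P3 the mural cells fell into 106 with at least 3 Myh11 UMIs and 700 with fewer, chosen by Rgs5, and the members differed sharply between them. Tagln was at 6739 CPM in the Myh11 cells and 618 CPM in the others, a ratio of 10.9. The ratio was 21.6 for Lmod1 (327 and 15.1 CPM), 15.8 for Cnn1 (299 and 19.0 CPM), 11.2 for Myl9 (5126 and 459 CPM), 8.98 for Mylk (999 and 111 CPM) and 5.32 for Tpm2 (2657 and 500 CPM). Smtn, at 89.3 and 65.1 CPM, had a ratio of 1.37. These are values of 1 pooled matrix, split by a member gene, and carry no test. Between the barcode suffixes, mural Tagln was at 1507 and 984 CPM, Myh11 at 161 and 60.8 CPM and Smtn at 42.8 and 86.4 CPM. Mylk was at 251 and 156 CPM and Lmod1 at 56.4 and 36.9 CPM, so the P3 mural levels depend on the suffix by up to the size of these gaps.

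The change from E12.5 to E16.5 differed between the classes for most members. At E12.5 the mural class was still Rgs5-selected cells with low pericyte markers, so stage and kind of cell cannot be told apart in its change. In a fit over both classes, 5 of the 6 members tested differed, 1 in the positive and 4 in the negative direction (cardiomyocyte change minus mural change), against 23% of genes (11.1% and 11.9%). Cnn1 fell more in mural cells than in cardiomyocytes, a difference of 1.88 (SE 0.24, edgeR adjusted p = 4.60e-06). Mylk (-4.85, SE 0.38, edgeR adjusted p = 4.78e-09), Lmod1 (-5.02, SE 0.47, edgeR adjusted p = 6.97e-08), Tpm2 (-1.09, SE 0.13, edgeR adjusted p = 2.23e-06) and Smtn (-0.78, SE 0.20, edgeR adjusted p = 0.00599) had the more positive change in mural cells. The Smtn call was lost without E12.5 replicate 2 or E16.5 replicate 1. For Myl9 the difference was 0.13 (SE 0.14, edgeR adjusted p = 0.546, 95% interval -0.14 to 0.40), and for Tagln, not tested, it was -2.16 (SE 0.18). Both classes come from the same libraries, which this fit does not take into account, and with each library as a block the same 5 members differed.

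Which class held the higher level thus changed for some members. At E10.5 Tagln in mural cells was 0.27 and 0.40 times its cardiomyocyte level, at E12.5 it was 2.79 and 2.74 times, and at E16.5 it was 13.7 and 13.4 times. At E16.5 Cnn1 in mural cells was 0.24 and 0.15 times its cardiomyocyte level, and Myl9 was 0.46 and 0.47 times. The other members were higher in mural cells in both libraries, among them Myh11, which was used to choose these cells. No share over all genes is given beside this, so it is a description only. Cardiomyocytes were the most numerous class of the E16.5 libraries, with 3607 of 5593 and 3482 of 5119 kept barcodes, where mural cells had 144 and 101. Cardiomyocytes held 96.6 and 97.2% of all Cnn1 UMIs and 96.2 and 96.7% of all Myl9 UMIs of these libraries. For Myh11 the mural share was 78.6 and 84.8%, which the choice of cells partly sets, and for Lmod1 it was 54.4 and 73.3%. Cells with at least 10 UMIs of Col1a1 and Col3a1, a range of fibroblast-like expression, held 36.1 and 37.5% of the Tagln UMIs at E16.5, with Tagln at 152 and 142 CPM. The share of all UMIs that each class held is not given beside these shares, so they are description only.

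**Figure D3:**
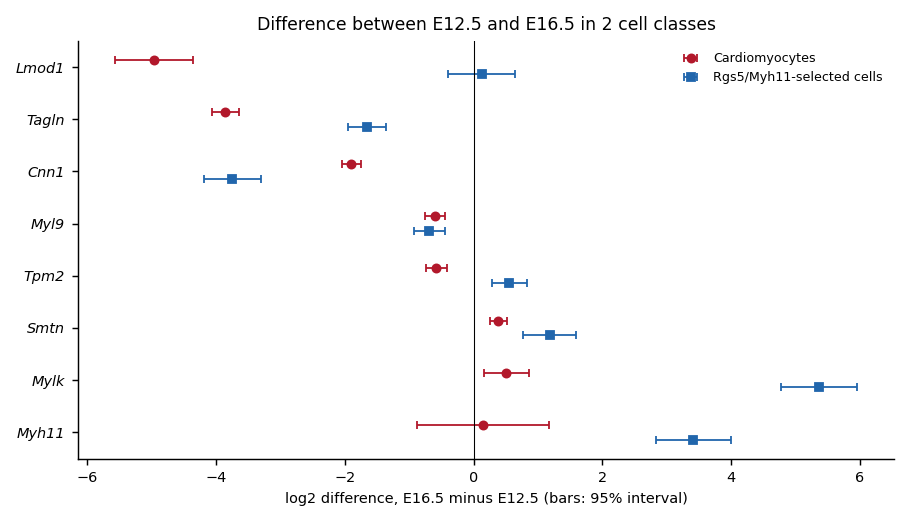
Log2 difference of E16.5 against E12.5 for each gene in cardiomyocytes and in mural cells, with bars of the 95% interval from the edgeR fits on 2 libraries a stage. Tagln in cardiomyocytes and Myh11 in mural cells were not tested, since they helped to choose the genes and the cells. Their bars are description only. Mylk lies at 0.51 in cardiomyocytes and 5.36 in mural cells, Lmod1 at -4.96 and 0.12, and Myl9 at -0.60 and -0.69.

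**Figure D4:**
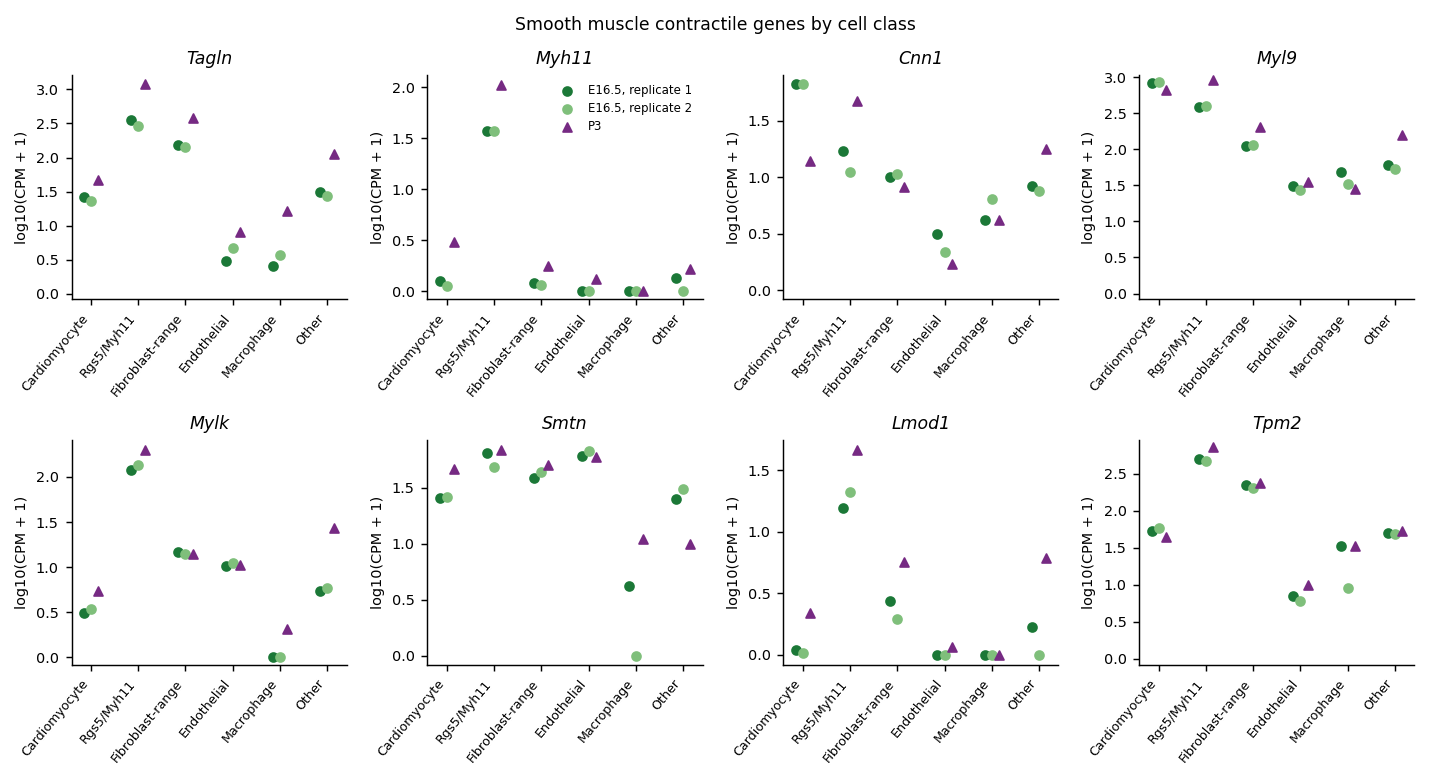
Levels of the 8 genes, as log10(CPM + 1), in 6 classes of cells in both E16.5 libraries and at P3, 1 point per library. Tagln lies at 353 and 290 CPM in mural cells, 152 and 142 CPM in the fibroblast range and 25.7 and 21.7 CPM in cardiomyocytes of the E16.5 libraries.

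Cardiomyocytes are not uniform, and the members were compared between those with at least 1000 CPM of Myl2, the regulatory light chain of ventricular muscle, and those with less, which at these stages include atrial cells. Between 177 and 324 cells per heart library from E12.5 to E16.5 were Myl2-low, and 1214 at P3. Myl9 was at 2806 and 2657 CPM in Myl2-low cells and 1322 and 1276 CPM in Myl2-high cells at E12.5, 2012 and 2090 against 906 and 925 CPM at E14.5, and 2242 and 2195 against 725 and 727 CPM at E16.5. At P3 it was at 1811 and 448 CPM. The groups did not overlap at any of these stages.

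Tpm2 was likewise at 165 and 166 CPM in Myl2-low cells and 83.1 and 86.2 CPM in Myl2-high cells at E12.5, 160 and 179 against 65.9 and 66.6 CPM at E14.5, and 121 and 143 against 46.9 and 49.4 CPM at E16.5. Mylk was at 5.38 to 12.3 CPM in Myl2-low cells and 0.98 to 1.52 CPM in Myl2-high cells over the 6 libraries. For Tagln the order changed with stage, since at E12.5 it was lower in Myl2-low cells, at 359 and 276 CPM against 432 and 381 CPM. At E14.5 it was higher there, at 232 and 226 against 152 and 151 CPM, and at E16.5 it was at 118 and 106 against 18.3 and 14.1 CPM. The same held at P3, with 189 and 17.4 CPM. Over all P3 cardiomyocytes Tagln was at 45.4 CPM, and at 24.8 CPM in those without markers of other classes. The part of cells with such markers in the P3 gap was not tested. Cnn1 was at 331 and 324 against 278 and 279 CPM in E12.5 hearts, 197 and 201 against 188 and 194 CPM in E14.5 hearts and 148 and 156 against 59.3 and 58.3 CPM at E16.5.

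Over the 6 libraries, with stage as a term, 5 of the 8 members were lower in Myl2-high cells and 0 higher, against 51.1% of all genes tested (23.6% lower and 27.5% higher). The differences were -1.11 (SE 0.05) for Myl9, -1.09 (SE 0.05) for Tpm2, -2.68 (SE 0.15) for Mylk, -0.84 (SE 0.08) for Tagln and -0.39 (SE 0.04) for Cnn1, with edgeR adjusted p-values between 3.41e-13 and 5.00e-07. Both sums of a library entered as separate samples, and with each library as a block the same 5 members were lower. Tagln and Cnn1 are averages over stages that were unlike. Smtn differed by 0.06 (SE 0.07, edgeR adjusted p = 0.513, 95% interval -0.08 to 0.19) and Myh11 by -1.90 (SE 0.78, edgeR adjusted p = 0.0513), a difference that 6 alternatives called and that turned to 0.20 (edgeR adjusted p = 0.923) without E14.5 replicate 1. For Lmod1, not called, the difference could not be estimated (SE 4.03), since both Myl2-low sums of E16.5 held 0 UMIs. In E12.5 hearts Lmod1 was at 10.4 and 8.39 CPM in Myl2-low and 1.98 and 1.86 CPM in Myl2-high cells, and in E14.5 hearts, from 2 to 8 UMIs a sum, it was at 0.995 and 3.66 against 0.15 and 0.061 CPM. Acta2 lay the other way, 1.16 higher in Myl2-high cells (SE 0.06, edgeR adjusted p = 6.23e-12). In Myl2-low cells Acta2 was at 1239 and 1128 CPM in E12.5 hearts, 651 and 794 CPM in E14.5 hearts, 288 and 254 CPM at E16.5 and 267 CPM in P3 hearts, and in Myl2-high cells it was at 1165 and 1189 CPM in E12.5 hearts and 1068 and 1104 CPM at E16.5. Endothelial markers were at 27.3 to 44.1 CPM in Myl2-high and 59.1 to 92.0 CPM in Myl2-low cells of these libraries, and their part was not tested.

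**Figure D5:**
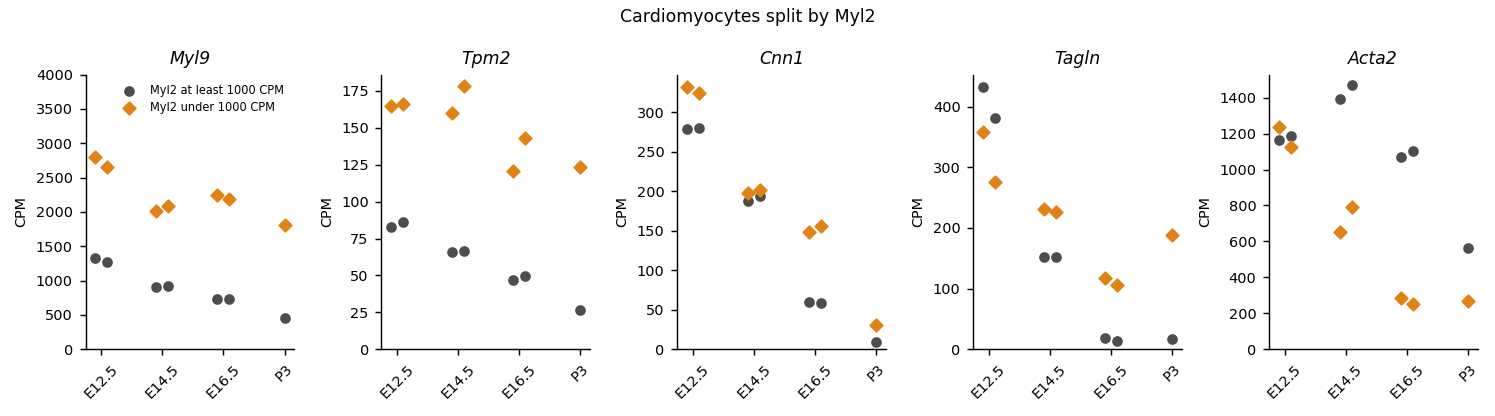
Levels in CPM of Myl9, Tpm2, Cnn1, Tagln and Acta2 in cardiomyocytes with at least 1000 CPM of Myl2 and with less, 1 point per heart library. At E16.5 Tagln is at 118 and 106 CPM in Myl2-low and 18.3 and 14.1 CPM in Myl2-high cells, and Myl9 at 2242 and 2195 against 725 and 727 CPM.

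Related genes were followed in 4 lists from E12.5 to E16.5, an interval in which 58.2% of all genes tested passed in cardiomyocytes (29.6% higher and 28.6% lower) and 29.5% in mural cells (15.5% higher and 14% lower). Of the close relatives of the members, all 17 tested of 20 passed in cardiomyocytes, 5 higher and 12 lower, with a median log2 difference of -0.52 against 0.01 over all genes. Transgelin 3 (Tagln3, -3.69), tropomyosin 4 (Tpm4, -1.38), calponin 2 (Cnn2, -1.27) and tropomyosin 3 (Tpm3, -0.99) fell (edgeR adjusted p from 2.34e-12 to 7.17e-10). In mural cells 14 of the list were tested, of which 3 rose and 7 fell (median -0.41 against 0.01). There Tagln2 (1.04) and Myh9 (1.16), the heavy chain of a non-muscle myosin, rose, while the non-muscle heavy chain Myh10 (-2.12) and Tpm1 (-0.95) fell (edgeR adjusted p from 3.99e-07 to 3.31e-04).

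Of the genes that set light chain phosphorylation, 7 rose and 0 fell of 12 tested of 13 in mural cells (median 0.50), where 15.5% of all genes rose. Among them were Ppp1r14a, an inhibitor of myosin phosphatase (3.36), Ppp1r12c, a phosphatase targeting subunit (1.36), and the kinases Rock2 (1.27) and Rock1 (0.59), with edgeR adjusted p from 7.74e-09 to 0.00509. In cardiomyocytes 4 rose and 3 fell of 13 (median 0.09), a share of 53.8% beside 58.2% of all genes. Among those higher were Ppp1r12b (0.83), Rock2 (0.76) and Ppp1cb, a phosphatase catalytic subunit (0.52), with edgeR adjusted p from 9.97e-09 to 1.15e-05.

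Of the cytoskeletal genes of smooth muscle, 6 rose and 9 fell of 19 in cardiomyocytes (78.9% beside 58.2% of all genes, median -0.38), the PDZ-LIM proteins Pdlim7 (-1.73) and Pdlim3 (-1.20), synemin (Synm, -1.74) and alpha-actinin 1 (Actn1, -0.95) being the most clearly lower (edgeR adjusted p from 1.10e-11 to 3.24e-09). In mural cells 5 rose and 6 fell of 17 tested (64.7% beside 29.5%, median -0.33), with the integrins Itga7 (6.82) and Itga8 (3.25) higher and Pdlim7 (-1.37) and Pdlim3 (-1.61) lower (edgeR adjusted p from 1.02e-06 to 7.84e-05). Acta2 in mural cells was lower by 0.41 (SE 0.14, edgeR adjusted p = 0.0434).

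Of the SRF axis, 4 rose and 1 fell of 8 in cardiomyocytes (62.5% beside 58.2% of all genes, median 0.16). Among them were Fhl2, an SRF cofactor (1.61), Myocd and Klf4 (0.43), higher, and the SRF partner Elk3 (-0.50), lower (edgeR adjusted p from 9.46e-11 to 2.33e-04 with Myocd included). In mural cells 4 rose and 0 fell of 7 tested (57.1% beside 29.5%, median 0.55), namely Mef2c (1.55), Mkl2 (1.64), Klf4 (1.61) and Fhl2 (0.55), with edgeR adjusted p from 1.59e-05 to 0.0301, while Srf differed by 0.33 (SE 0.26, edgeR adjusted p = 0.373). Myocd was the list's gene with too few UMIs to be tested there, and its mural level was 4.94 and 4.37 CPM in E12.5 hearts, from 13 UMIs each, and 0.94 and 0.92 CPM at E16.5, from 2 UMIs and 1 UMI. With the barcodes that met both rules counted as mural, Myocd was at 6.43 and 6.32 CPM in E12.5 hearts and 4.92 and 5.57 CPM at E16.5, so its mural level rests on that choice.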

How the data were processed

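Mouse single-cell libraries were made with droplet 3′ chemistry from dissociated tissue. The labels name trypsin and version 2 chemistry, and the study's methods collagenase II and version 3. What the authors deposited are raw UMI counts, a gene by barcode matrix without normalization. The submitters' processing notes name Cell Ranger 2.1.1, Seurat 3.1.1 and build mm10, while the file headers name other Cell Ranger releases. The embryonic matrices list the same 737280 barcodes, the size of the version 2 barcode list, and all 10930 barcode sequences among the 10964 cells of the P3 matrix are in it. Total depth was 67141166 to 259041468 UMIs per matrix. E16.5 replicate 1 joins 2 sample records.

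Counts were summed per library and class and compared with edgeR 4.0.16 in R 4.3.3 (TMM scaling, filterByExpr, quasi-likelihood test), with DESeq2 1.42.0 as an alternative. On simulated data all genes changed by log2 1 or 2 were recovered (100% of each, cardiomyocytes E16.5 against E12.5, 14602 genes). The mural sums, which rest on far fewer cells, were not simulated, so this recovery does not extend to them. Cells were assigned in the order cardiomyocyte, mural, endothelial, macrophage, erythroid and fibroblast range. No doublet caller was run, and cardiomyocytes without markers of other classes served as the alternative. Any 2 matrices shared 14 to 181 kept barcodes, up to 1.90% of the smaller. The members and lists were chosen with earlier results of these data known. From each list at most 4 genes with the smallest adjusted p under 0.05 were named, and Acta2, Myocd and Srf where tested. Alternatives covered scaling, the count filter, depth, the mitochondrial floor, thinning, the class limits, the mural rule by Rgs5 only or without Myh11 cells (added later), each library left out and a replicate block.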

Additional observations from a re-analysis of the deposited data

Results flagged for a closer look

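The change from E12.5 to E16.5 differed between cardiomyocytes and mural cells for 5 members, by the test of the difference itself (edgeR, 2 libraries a stage, cardiomyocyte change minus mural change on the log2 scale). The difference was 1.88 for Cnn1, which fell in both classes and fell further in mural cells. It was -4.85 for Mylk, which rose steeply in mural cells, and -5.02 for Lmod1, which was nearly lost from cardiomyocytes while its mural level was 13.2 to 20.2 CPM over these heart libraries. At E16.5 that level rested partly on 6 and 5 cells with at least 3 Myh11 UMIs, and without these cells the difference was -4.15. It was -1.09 for Tpm2 and -0.78 for Smtn. Fibroblast and pericyte markers of the mural sums also moved between these stages, and their part was not tested.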

How the results depend on the processing

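Calls of members were counted again under each alternative. Libraries left out apart, 3 of the 9 comparisons moved beyond 1.5 times: with a Tnnt2 limit of 3000 CPM, 2 members passed in cardiomyocytes from E10.5 to E12.5, where 4 had, and with cells thinned to 2000 UMIs, 2 passed in mural cells from E12.5 to E14.5 and 2 from E14.5 to E16.5, where 4 had in each. Thinning, which removes most UMIs, also ended the calls of Cnn1 (E10.5 to E12.5), Lmod1 (E14.5 to E16.5) and Mylk (E12.5 to E16.5) in cardiomyocytes, of Cnn1 at both steps and Mylk and Myl9 at 1 step each in mural cells, of mural Smtn from E12.5 to E16.5 and of Smtn between classes. The thinned values were 0.48, -3.32 and 0.68 for those in cardiomyocytes, -1.54 and -2.02 for mural Cnn1, 3.95 for Mylk, 0.48 for Myl9, 0.95 for mural Smtn and -0.20 between classes, so several were about as far from 0 as before. The cause of the change at 3000 CPM was not tested. With each library left out in turn, the counts ran from 3 to 4, 4 to 5, 2 to 5 and 5 to 6 for cardiomyocytes (E12.5 against E10.5, E14.5 against E12.5, E16.5 against E14.5 and E16.5 against E12.5), from 3 to 4, 2 to 4 and 5 to 6 for mural cells in the last 3 of these, from 4 to 5 for the difference between classes and from 5 to 6 for Myl2. The lowest, 2, came without E14.5 replicate 1, E14.5 replicate 2 or E16.5 replicate 2 in cardiomyocytes and without E16.5 replicate 1 in mural cells. Direction changed for Myl9 in cardiomyocytes from E10.5 to E12.5 (-0.19 at 3000 CPM), and otherwise only for differences that had not been called: Smtn there (-0.44 thinned), Mylk from E12.5 to E14.5 (-0.049 at 3000 CPM, -0.084 without markers of other classes, -0.15 to 0.26 with a library left out), Myh11 from E12.5 to E16.5 (-0.58 to 0.97), mural Lmod1 (-0.0046 with mural cells taken at 200 CPM, -0.18 with the mural rule alone, -0.043 to 0.38 with a library left out, and -0.73, or -0.41 from E14.5, without the cells of at least 3 Myh11 UMIs, a split by a member added after the data were seen), Myl9 between classes (-0.041 at 3000 CPM, -0.093 thinned) and Myh11 by Myl2 (-2.28 to 0.20). Samples of the same number did not deviate together (r from -0.025 to 0.079 over 9 pairs of stages), and a replicate block changed 1 call, that of Mylk in cardiomyocytes from E14.5 to E16.5 (0.46, edgeR adjusted p = 0.0402, making 5 calls), which 7 other alternatives also called. Over all genes, in the same order, calls numbered 4289 (998 to 4628 over the alternatives), 4931 (1595 to 5332), 5658 (2510 to 6253) and 8428 (4203 to 8706) for cardiomyocytes, 763 (116 to 1243), 677 (168 to 1147) and 2801 (688 to 3376) for mural cells, 3258 (846 to 3440) between classes and 6978 (2722 to 7232) by Myl2. DESeq2 turned the split of the first of these from 2345 higher and 1944 lower to 1894 and 2371. At 3000 CPM the median of all genes there was 0.21, against 0.07. Without the cells of at least 3 Myh11 UMIs, the mural difference from E14.5 to E16.5 was 0.27 for Myl9 and -0.92 for Tagln. That of Myl9 between classes was 0.50. These values carry no test, since a member made the split. Rgs5 as the only rule changed no call of a member. The comparison of mural cells with Myh11 against Rgs5 alone was not run as a test, since 0 to 6 Myh11 cells per embryonic library were left.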
